A study of Homo sapiens with 402 samples.

Results

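The 8 genes described here make, inactivate or sense estrogen: the sulfotransferase SULT1E1, the sulfatase STS, the 17-beta-hydroxysteroid dehydrogenases HSD17B1 and HSD17B2, the nuclear receptors ESR1 and ESR2, the membrane receptor GPER1, and GREB1, a coactivator and target of ESR1. They were taken by symbol from 34721 gene symbols in the count files, chosen by what they do in estrogen metabolism and with the CPM values and calls of these libraries already known. Their levels and tests therefore describe these libraries and are not evidence gained apart from that choice. All 8 were listed on every plate, and 7 passed the filter on low counts on every plate. ESR1 failed it on the plate of DDE. ESR1 and ESR2 passed it on the other plates but were at 0 counts in most libraries, and no direction is read from their levels except where a sentence says otherwise.

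The libraries come from MCF10A, a line of non-tumorigenic human breast epithelial cells, labelled wild type and all of 1 passage, grown in multiwell plates. Cells were exposed for 48 h to 1 of 21 chemicals at 0.025, 0.25, 2.5 or 25 µM, lysed in the well and read by plexWell, an RNA-seq method that barcodes each well and then pools the plate. Of 402 libraries, 333 were dosed and 69 were solvent controls, and a dose had 4 wells (3 for MPB and PPB at 0.025 µM, and 2 for cadmium at 25 µM once 1 library with the barcode of another plate was set aside). Nothing in the labels ties the wells to separate cultures, so p-values measure the spread between wells. Arsenic, cadmium, copper, lead and mercury shared plate 3153-AT and its 15 water controls. BPA, BPF, BPS, MPB and PPB (bisphenols and parabens) shared plate 3206-AT with 15 DMSO controls. The perfluoroalkyl compounds PFDA, PFNA and PFOS and the polycyclic hydrocarbon phenanthrene, in DMSO, and PFOA, in water, shared plate 3240-AT with 12 DMSO and 4 water controls. DCB_14, DCP_25, PCB153, PCB187 and thiram shared plate 3284-AT with 15 DMSO controls. DDE was alone on a plate with 8 controls whose barcode is that of DDE, although their label gives water and plate 3153-AT, and DDE is labelled DMSO.

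Estradiol, the potent estrogen, is held in balance by enzymes that work in pairs. HSD17B1 reduces weak estrone to estradiol and HSD17B2 oxidises it back. SULT1E1 adds a sulfate that stops estradiol from binding its receptors, and STS removes sulfate from stored steroid sulfates. ESR1 and ESR2 are transcription factors activated by estradiol, and GPER1 is a G protein coupled receptor at membranes. In breast tissue ESR1 marks hormone sensing luminal cells, whereas MCF10A is known as a largely basal-like line.

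SULT1E1 was the member with the most calls, so the sequence in front of its start is shown. It lies on the minus strand of chromosome 4 (GRCh38, gene at chr4:69841212-69860152 in GENCODE v29), and the 250 bases before the RefSeq start (GRCh38.p14, chr4:69860146-69860395, written 5′ to 3′ on the minus strand) read as follows, with a TATA box in capitals.
SULT1E1 promoter: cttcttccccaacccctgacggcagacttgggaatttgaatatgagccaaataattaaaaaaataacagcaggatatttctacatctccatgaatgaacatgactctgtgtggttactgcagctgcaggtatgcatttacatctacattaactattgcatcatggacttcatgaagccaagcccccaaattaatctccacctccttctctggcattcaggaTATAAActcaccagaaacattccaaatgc
The letters TATAAA begin 29 bases before the start, and 11.5% of 35116 RefSeq promoter windows hold them on either strand. The window of SULT1E1 held no match on either strand to the palindromic estrogen response element, which 0.057% of windows hold, or to its core AGGTCA, which 13.8% hold. Nor did it match the xenobiotic response element GCGTG (36.5% of windows), the antioxidant response element TGACNNNGC (13.3%), the AP-1 site TGANTCA (7.71%) or the metal response element as TGCACNC or TGCGCNC (29.6%). These letters are not in this window, which says nothing of any factor. RefSeq windows were also given for STS (5), ESR1 (6), ESR2 (5) and GPER1 (2), and 1 window of GPER1 has the same letters at the same distance.

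Depth bounds what can be read from these genes. Library totals ranged from 1.43 to 25.8 M counts (1 M is 1000000 counts), with plate medians of 11.9 to 13.8 M on the 4 plates of sequencing run 2 and 6.42 M on the plate of DDE, which was run 1. By number, the dosed wells 1 and 2 and the first controls were taken here as 1 batch of wells. Numbers 3 and 4 and the last controls were taken as another. On plate 3153-AT the first controls had a median of 20.9 M counts and the last controls 3.17 M. The dosed wells of that plate had medians of 14.05 M in the first batch and 14.01 M in the second. On plate 3284-AT the last controls had 3.18 M and the dosed wells of their batch 14.5 M, so depth differed within a batch. Between the first and last controls, 20.3% of genes were called on plate 3153-AT, 6.07% on 3206-AT, 0.546% on 3240-AT and 6.38% on 3284-AT. Values within each batch are therefore given where they bear on a result. The controls held markers of basal and of luminal epithelium. The summed level of 7 basal markers had a median of 1864 CPM (1074 to 8010 over the 69 controls), mostly from the keratin KRT5 with a median of 1247 CPM, while KRT14 had a median of 24.1 CPM and TP63 of 4.24 CPM. Of 7 markers of hormone sensing luminal cells, KRT8 (median 408 CPM) and KRT18 (516 CPM) carried nearly all of a summed median of 976 CPM, ESR1 had a median of 0, and PGR was at 0 in all 61 controls of run 2, where KRT19 had a median of 0. The 5 markers of stroma, vessels and leukocytes found in the files, of 6 on the list, summed to a median of 4.79 CPM.

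Compared per kilobase of exon, the estrogen converting enzymes and GPER1 were present in the controls and the nuclear receptors were near 0. In the 15 water controls of plate 3153-AT, SULT1E1 had the highest level, with 15.1 ± 2.88 CPM per kb (mean ± SD). Of its 2091 exon bases, 503 are shared with another protein-coding gene on the same strand, AC108941.2, so the counting may have divided or dropped reads there. HSD17B2 followed with 5.23 ± 2.14 CPM per kb, GPER1 with 4.50 ± 1.76, HSD17B1 with 3.34 ± 1.13 and STS with 2.37 ± 0.76. Per kilobase, SULT1E1 stood apart from HSD17B2 by more than their spread, whereas HSD17B2, GPER1, HSD17B1 and STS overlapped their neighbours in this order. The order depends on the length used, which is the union of all annotated exons (9550 bases for HSD17B2). In CPM not divided by length, HSD17B2 had a higher median than SULT1E1 in these controls, 59.6 against 31.7 CPM. GREB1 was at 0.243 ± 0.176 CPM per kb, ESR2 at 0.0376 ± 0.0624 and ESR1 at 0.0244 ± 0.0391. The last 3 levels are below that of STS by more than the spread, while ESR2 and ESR1 do not differ beyond it. In the 12 DMSO controls of plate 3240-AT the first 4 places did not separate: HSD17B2 was at 3.48 ± 0.70 CPM per kb, GPER1 at 3.29 ± 1.40, HSD17B1 at 3.18 ± 0.82 and SULT1E1 at 3.11 ± 1.47. Thus the place of SULT1E1 in the order differed between the control sets.

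**Figure D1:**
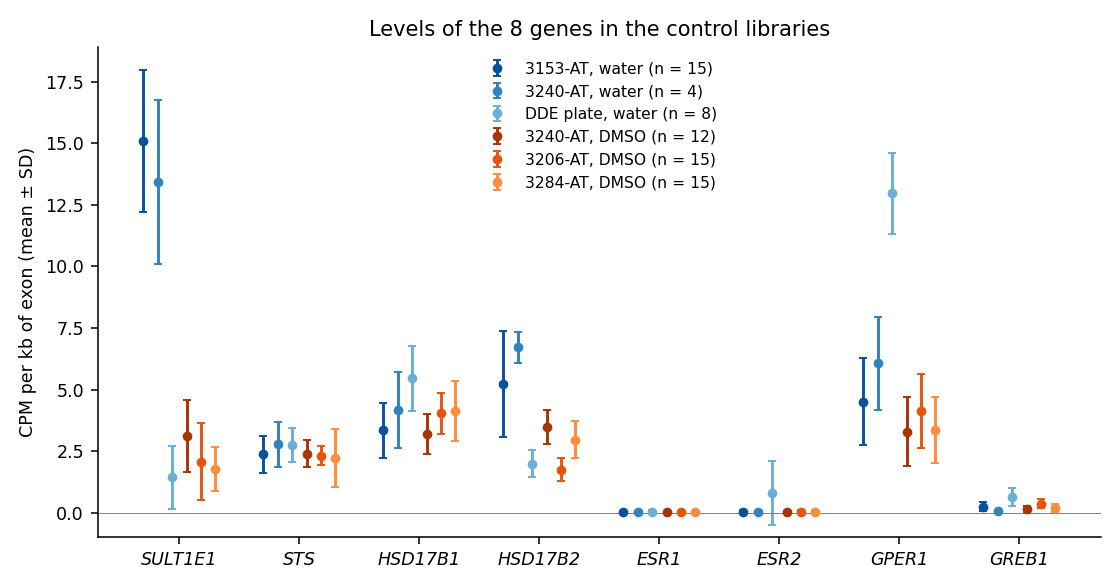
Level of each of the 8 genes in the 6 sets of solvent controls, in CPM per kilobase of exon; points are means over the control libraries of a plate and solvent and bars are SD. SULT1E1 is at 15.1 CPM per kb in the water controls of plate 3153-AT and 3.11 in the DMSO controls of plate 3240-AT, and ESR1 and ESR2 lie near 0 on the plates of run 2.

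Of the 8 genes, 3 differed between the solvents on plate 3240-AT, which held both kinds of control. Between its 4 water and 12 DMSO controls, 4.08% of all 19468 genes tested were called by edgeR at an adjusted p under 0.05. SULT1E1 in the DMSO controls ranged from 0.811 to 12.4 CPM with a median of 6.88, and in the water controls from 18.1 to 33.5 CPM with a median of 30.3. The 2 sets do not overlap, and SULT1E1 was higher in water by 2.06 ± 0.26 on the log2 scale (SE, adjusted p = 1.76e-09). HSD17B2 ranged from 24.7 to 45.1 CPM in DMSO and from 59.5 to 73.1 CPM in water, also without overlap, a difference of 0.94 ± 0.13 (adjusted p = 8.46e-08). GPER1 was at 17.4, 25.5, 11.7 and 21.8 CPM in water and at 10.3 ± 4.39 CPM in DMSO, sets that overlap (0.91 ± 0.24, adjusted p = 0.0116). The difference of GPER1 was 0.53 within the second batch of wells, with an adjusted p of 0.695. The same ordering of levels was seen over whole plates, as values set side by side: the median of SULT1E1 was 31.7 CPM in the water controls of plate 3153-AT, 3.49 CPM in the DMSO controls of plate 3206-AT and 3.62 CPM in those of plate 3284-AT. SULT1E1 was at 2.99 ± 2.70 CPM (n = 8) in the controls of the plate of DDE, which are labelled water and belong to the other sequencing run. Solvent and chemical cannot be told apart when levels of SULT1E1 or HSD17B2 are set side by side across plates, so each chemical is read against its own controls.

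Against those controls, 19 of 668 tests of a member in a chemical and dose were called, 3 higher and 16 lower, beside 1.34% of all tests over all genes. No member was called at 0.025 µM in 167 tests (0.0104% of all tests at that dose), while 1 was called at 0.25 µM (0.0748%), 5 at 2.5 µM (0.412%) and 13 at 25 µM (4.85%). At 0.025 µM, 19 of the 167 tests had an unadjusted p under 0.05 in edgeR, and DESeq2 called 0 as well. The 13 calls of 167 at 25 µM are a share above but near that over all genes. The calls belonged to arsenic (7), copper (6), and lead, BPA, PFOS, PFDA, thiram and DDE (1 each). In arsenic at 25 µM, where 41.4% of all genes were called, 2 of the 8 members were higher and 3 lower. At 25 µM the share over all genes was 25.9% in thiram, 7.77% in DDE, 5.09% in copper and 3.85% in lead. It was 0.0668% in PFOS and in PFDA. At 2.5 µM it was 1.96% in arsenic, 3.0% in copper and 0.605% in BPA, and at 0.25 µM of copper 0.156%. Chemicals without a call of a member at any dose were cadmium, mercury, BPF, BPS, MPB, PPB, PFNA, PFOA, phenanthrene, DCB_14, DCP_25, PCB153 and PCB187. Of the 167 dose trends, 1 rose and 4 fell, with 3.12% called over all genes.

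**Figure D2:**
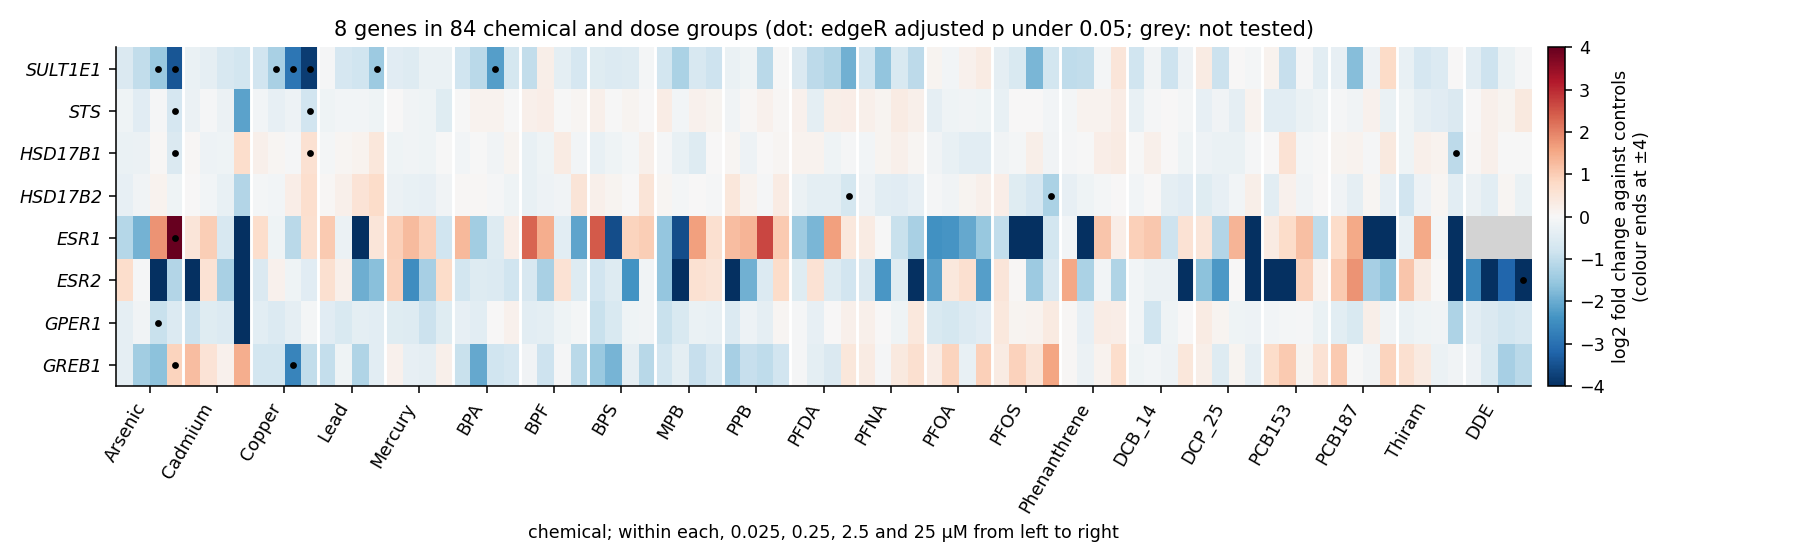
Log2 difference from controls for the 8 genes (rows) in the 84 groups of chemical and dose (columns). Controls are of the same plate and solvent, except that DDE, labelled DMSO, is set against controls labelled water. A dot marks the 19 called groups, grey is where ESR1 was not tested, and colours end at ±4. Dots gather in SULT1E1 of arsenic and copper, and the dark cells of ESR1 and ESR2 without a dot rest on counts at or near 0.

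SULT1E1 fell with dose in arsenic, copper and lead and was called in 7 groups in all, each of them lower. In the 15 water controls it ranged from 17.6 to 41.8 CPM with a median of 31.7. Arsenic libraries 1 to 4 had 22.8, 38.6, 13.4 and 11.7 CPM at 0.025 µM and 19.1, 23.4, 12.1 and 10.3 CPM at 0.25 µM. At 2.5 µM of arsenic they had 13.1, 17.2, 6.11 and 6.30 CPM, and at 25 µM 3.75, 0.957, 5.72 and 1.99 CPM. All 8 libraries of the upper doses of arsenic lay below the lowest control. In such pooled lysates fewer expressing cells and less RNA per cell cannot be told apart. The log2 difference of SULT1E1 from the controls was -1.47 ± 0.30 at 2.5 µM (adjusted p = 0.0011, with 1.96% of genes called) and -3.43 ± 0.42 at 25 µM (adjusted p = 3.51e-11, with 41.4% called). The trend over the 4 doses of arsenic, which does not use the controls, was -0.90 ± 0.15 log2 for each 10-fold step in dose (adjusted p = 5.48e-07, with 29.7% called).

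In copper SULT1E1 was called lower at 3 doses. Its libraries 1 to 4 were at 17.7, 26.5, 15.7 and 16.9 CPM at 0.025 µM and at 18.2, 15.4, 8.06 and 10.8 CPM at 0.25 µM. They were at 3.02, 2.83, 5.13 and 6.31 CPM at 2.5 µM and at 0.466, 0.193, 4.90 and 4.55 CPM at 25 µM. At 2.5 and 25 µM no library of copper reached the controls, and at 25 µM libraries 1 and 2, with 10 and 3 counts of SULT1E1, lay well below libraries 3 and 4, with 77 and 59 counts. The log2 difference of SULT1E1 was -1.31 ± 0.28 at 0.25 µM (adjusted p = 0.0153, with 0.156% of genes called), -2.91 ± 0.33 at 2.5 µM (adjusted p = 3.60e-10, with 3.0% called) and -3.80 ± 0.39 at 25 µM (adjusted p = 6.32e-13, with 5.09% called). The group at 0.25 µM overlaps the controls, and its adjusted p was 0.128 without replicate 3 and 0.0942 without replicate 4. At 25 µM the mean was 0.0102 of that of the controls in the first batch and 0.154 in the second. The trend of copper was -1.07 ± 0.14 log2 for each 10-fold step (adjusted p = 2.25e-08, with 1.71% called), and -2.03 and -0.61 within the first and second batch.

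In lead SULT1E1 was called lower at 25 µM. The libraries of lead had 32.1, 29.3, 32.9 and 28.7 CPM at 0.025 µM, 29.1, 23.2, 14.5 and 14.1 CPM at 0.25 µM and 18.8, 21.3, 18.5 and 14.8 CPM at 2.5 µM. At 25 µM they had 13.5, 15, 8.82 and 9.63 CPM, all below the lowest control, and SULT1E1 fell by 1.45 ± 0.28 (adjusted p = 0.000217, with 3.85% of genes called). The trend of lead was -0.43 ± 0.10 log2 for each 10-fold step (adjusted p = 0.0123, with 0.868% called), and its adjusted p was 0.110 without replicate 1 and 0.0962 without replicate 3. Cadmium and mercury, on the same plate, had no call of SULT1E1. The 25 µM libraries of mercury had 33.8, 35, 19.9 and 16.8 CPM and its trend was 0.08 ± 0.10, and the 2 libraries of cadmium at 25 µM had 32.6 and 4.2 CPM. The 2 values of cadmium lie on either side of the lowest control, so no direction is read from them.

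A shift between batches of wells touches these values. At 0.025 µM, libraries 3 and 4 of arsenic, cadmium, copper and mercury had mean SULT1E1 levels of 12.5, 14, 16.3 and 18 CPM, against 30.6 CPM in the last controls, while those of lead had 30.8 CPM. The first and last water controls had SULT1E1 levels of 32.4 ± 2.72 CPM (n = 8) and 30.6 ± 8.61 CPM (n = 7). What separates the dosed wells 3 and 4 from the last controls was not tested, and the trends, which leave the controls out, ran downward within each batch for arsenic (-1.13 and -0.61 for each 10-fold step), copper and lead (-0.38 and -0.51). With a term for the batch, SULT1E1 was also called at 0.25 µM of arsenic (-0.85, adjusted p = 0.0174, with 0.465% of genes called) and at 2.5 µM of lead (-0.66, adjusted p = 0.0463, with 1.89% called). Markers of epithelial cell types moved with all 3 metals at 25 µM in the fit without that term. Over all genes that fit called 41.4% in arsenic, 5.09% in copper and 3.85% in lead. In the water controls of the plate the basal markers summed to 1789 to 2519 CPM and the luminal markers to 828 to 1144 CPM. In arsenic 6 of 7 genes of the basal list, CDH1 among them, were lower and 1 higher. Their sum was 752 to 1315 CPM, and the luminal sum was 764 to 849 CPM. In copper 3 of 7 basal markers were higher, with a sum of 2478 to 5146 CPM. Of 5 tested luminal markers KRT8 and KRT18 were lower in copper, and the luminal sum, 730 to 802 CPM, lay below every control. In lead CDH1, on the basal list but not particular to basal cells, was lower, as were the luminal KRT8 and KRT18. The sums of the basal and luminal lists in lead were 1464 to 2671 and 762 to 875 CPM. The part of these shifts in the SULT1E1 levels was not tested.

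**Figure D3:**
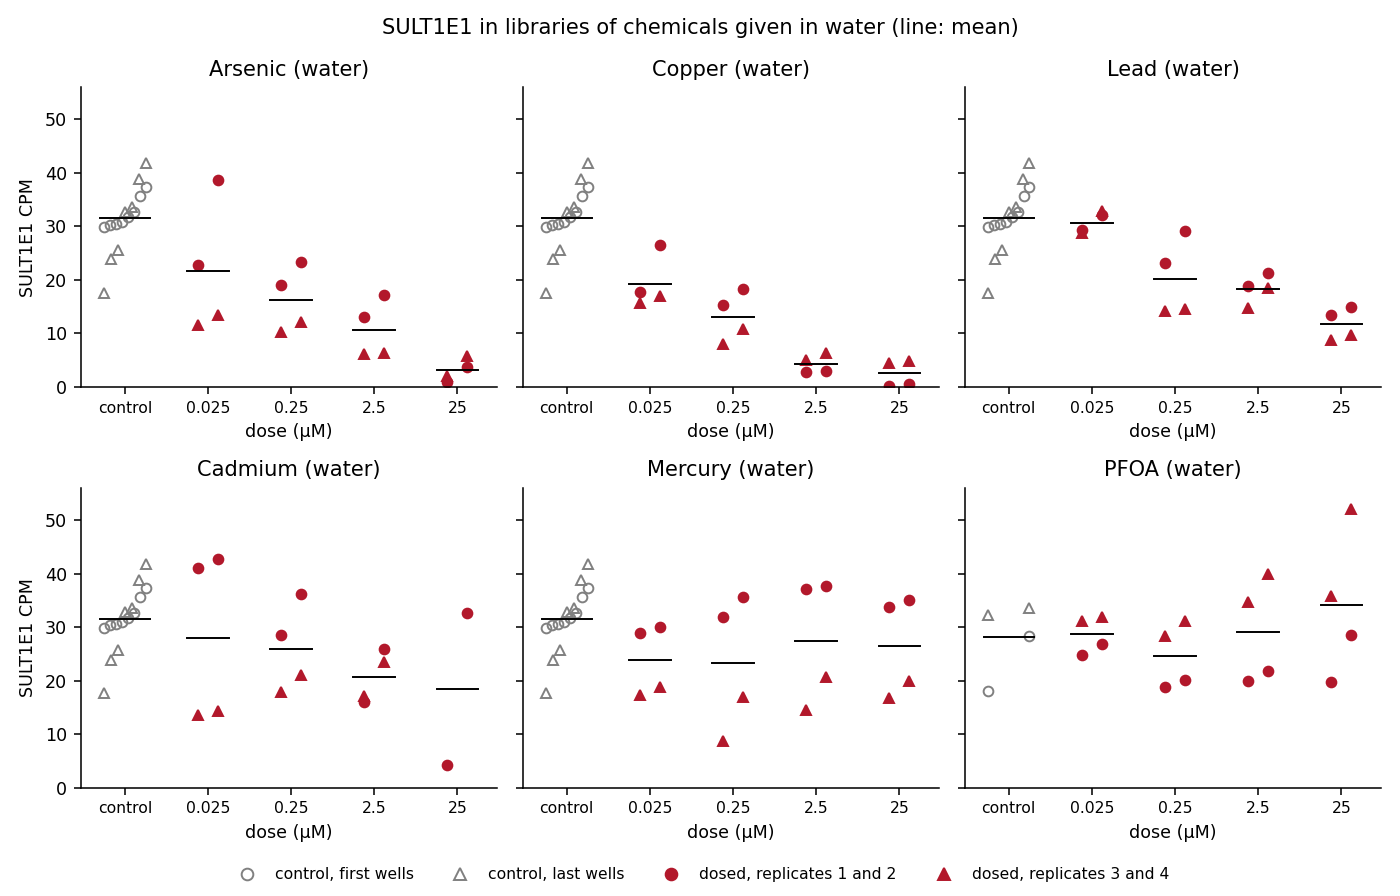
SULT1E1 in CPM (linear axis) in each library of the chemicals given in water, by dose in µM, beside the water controls of the plate; symbols separate the batches of wells and lines are means. At 25 µM the libraries of arsenic, copper and lead lie below the lowest control at 17.6 CPM, while those of PFOA lie between 19.8 and 52.1 CPM.

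In DMSO the level of SULT1E1 was low throughout. Dosed libraries in DMSO had medians of 2.79 CPM on plate 3206-AT, 3.09 CPM on plate 3240-AT and 2.75 CPM on plate 3284-AT. BPA at 2.5 µM was the only call there: its libraries had 1.01, 1.35, 1.38 and 0.56 CPM, within the 0 to 10.9 CPM of the 15 DMSO controls (-2.20 ± 0.57, adjusted p = 0.0362, with 0.605% of genes called). On that plate the first controls had 6.51 ± 2.99 CPM (n = 8) and the last 1.86 ± 1.16 CPM (n = 7), a difference of -1.76 in log2 (adjusted p = 0.0028). Leaving out any 1 replicate ended the call of BPA (adjusted p of 0.0568 to 0.222). BPA at 25 µM had a mean of 2.62 ± 1.73 CPM (n = 4) and was not called. PFDA at 25 µM had 1.91, 1.49, 2.10 and 1.31 CPM against 6.50 ± 3.07 CPM in the DMSO controls, at an adjusted p of 0.0605. With a term for the batch the same difference was called at -1.97 (adjusted p = 0.00409, with 0.488% called). Phenanthrene had means of 3.03, 3.33, 6.07 and 8.84 CPM over its 4 doses, a trend of 0.54 ± 0.14 log2 for each 10-fold step (adjusted p = 0.0544, and 0.0061 with a term for the batch, where 0.781% of genes were called).

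STS, the enzyme that releases estrogen and other steroids from their sulfates, was called lower in copper and arsenic at 25 µM and nowhere else. Its gene is on chrX:7219456-7354810, plus strand. The water controls had 15.5 ± 4.94 CPM (n = 15), from 8.51 to 26.1. Copper libraries had 7.82, 9.38, 8.85 and 8.17 CPM (-0.77 ± 0.20, adjusted p = 0.00974, with 5.09% of genes called). Arsenic libraries had 3.75, 9.93, 11.7 and 11.1 CPM (-0.68 ± 0.23, adjusted p = 0.0127, with 41.4% called). Both groups overlap the lower end of the controls, and the call of arsenic was lost without replicate 1, the library at 3.75 CPM (-0.41, adjusted p = 0.162), with RLE scaling (adjusted p = 0.0580) and within batch 2 (adjusted p = 0.330). The call of copper was lost within each batch (adjusted p of 0.0825 and 0.129). The 19 uncalled groups at 25 µM had STS means from 3.5 CPM, in the 2 libraries of cadmium, to 23.3 CPM, in DDE. STS was thus lower in the same 2 groups in which the sulfotransferase was lowest on that plate, though by a smaller amount on the log2 scale.

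HSD17B2, the dehydrogenase that inactivates estradiol, fell with dose of PFOS. The gene is at chr16:82035004-82098534, plus strand. The 12 DMSO controls of its plate had a median of 31.5 CPM and ranged from 24.7 to 45.1. PFOS libraries 1 to 4 had 43, 32.7, 50.1 and 37.3 CPM at 0.025 µM and 26.4, 25.1, 18.5 and 27.2 CPM at 0.25 µM. They had 27.7, 21.8, 18.1 and 17.7 CPM at 2.5 µM and 13, 13.7, 19.3 and 10.5 CPM at 25 µM. All 4 libraries at 25 µM lay below every DMSO control, and HSD17B2 fell by 1.25 ± 0.18 on the log2 scale (adjusted p = 2.75e-06), in a comparison where 0.0668% of genes were called. The trend was -0.48 ± 0.06 log2 for each 10-fold step (adjusted p = 3.20e-07, with 0.036% called), and -0.45 and -0.51 within the first and second batch. Of the basal markers 0 of 7 were called by edgeR in this group, and their sum was 1414 to 1558 CPM, against 1074 to 1927 CPM in the DMSO controls. Of 5 tested luminal markers KRT8 was called higher (0.31 ± 0.07, adjusted p = 0.0495), and their sum was 901 to 994 CPM against 634 to 905 CPM in the controls. The part of that difference in the level of HSD17B2 was not tested.

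Among the other perfluoroalkyl compounds HSD17B2 was called in PFDA alone. PFOS carries a sulfonate head and PFDA, PFNA and PFOA carry a carboxylate, PFDA having the longest carbon chain of the 3 acids. PFDA libraries at 25 µM had 17.5, 16.2, 28.8 and 20.4 CPM of HSD17B2, of which 1 lies within the controls (-0.71 ± 0.15, adjusted p = 0.0173, with 0.0668% of genes called). The mean of PFDA was 0.451 of that of the controls in the first batch and 0.844 in the second, and the call was lost without replicate 1, 2 or 4 (adjusted p of 0.206, 0.207 and 0.0990). The sum of basal markers in PFDA was 841 to 1299 CPM, with 1 of 7 called lower, and the part of that shift was not tested. PFNA libraries had 25.1, 23.1, 31.8 and 28.6 CPM (adjusted p = 0.39), and PFOA libraries 84.1, 80.2, 76.7 and 56.2 CPM against 59.5 to 73.1 CPM in the water controls. Compared directly at 25 µM, PFOS was below PFNA by -0.93 in log2 (95% interval -1.33 to -0.53, adjusted p = 0.0881) and below PFDA by -0.54 (-0.96 to -0.12, adjusted p = 0.459). PFDA against PFNA gave -0.39 (-0.75 to -0.03, adjusted p = 0.899). At 0.025 µM, where the trend of PFOS starts, HSD17B2 in PFOS was above PFDA by 0.51 (0.18 to 0.84, adjusted p = 0.843). It was above PFNA by 0.47 (0.12 to 0.81, adjusted p = 0.974) at that dose. None of these passed after adjustment over all genes, and in 32 comparisons of related compounds at the same dose, plate and solvent no member was called by edgeR (0.00918% of all tests over all genes), while 23 of 256 tests of a member had an unadjusted p under 0.05. The intervals do not show that the compounds act alike. For the bisphenols, SULT1E1 in BPA minus BPF at 2.5 µM was -1.80 (-3.23 to -0.38, adjusted p = 0.845), and in BPA minus BPS -1.69 (-3.17 to -0.21, adjusted p = 0.982).

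**Figure D4:**
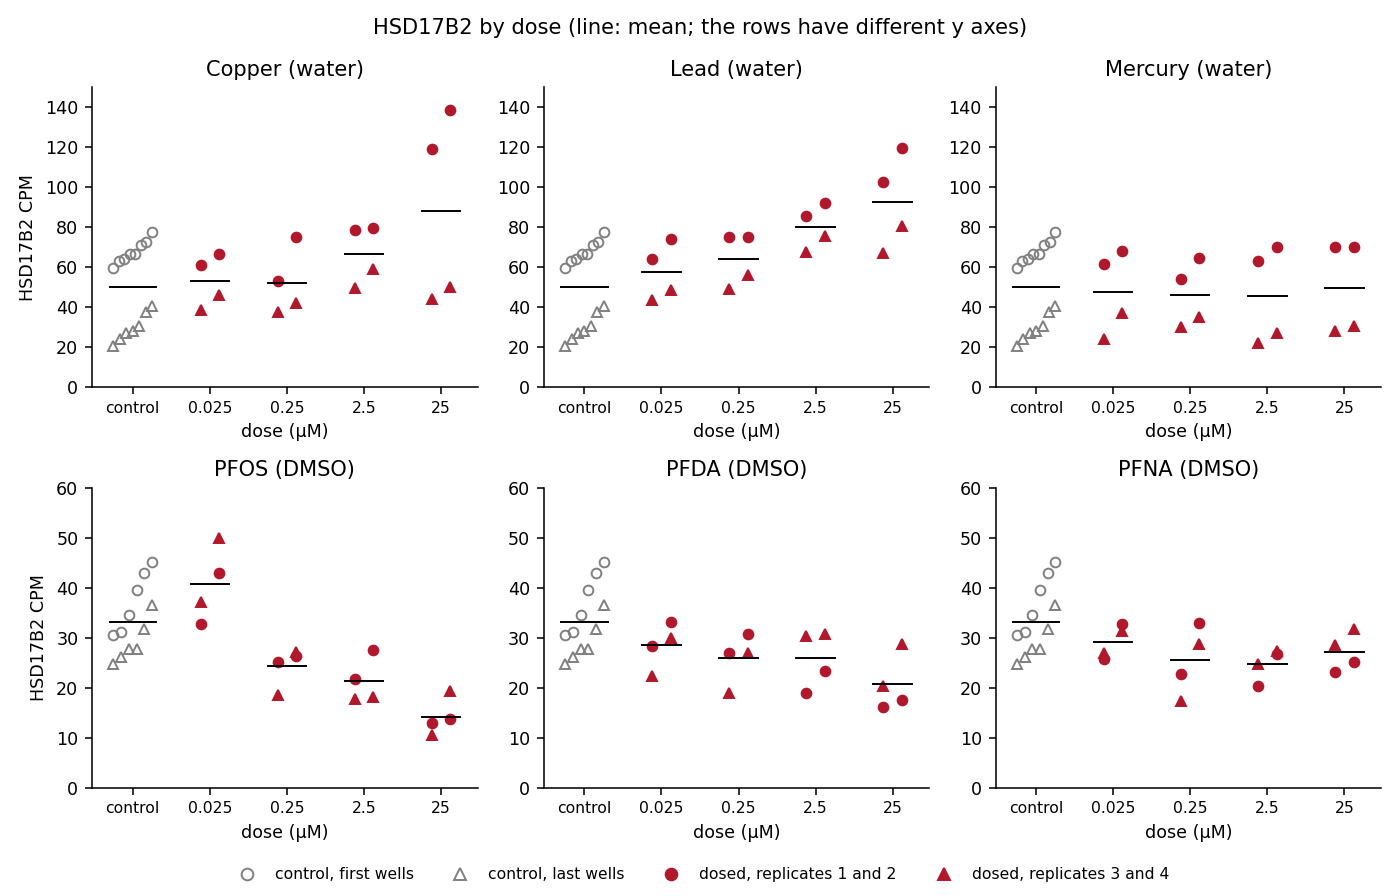
HSD17B2 in CPM (linear axis) in each library of copper, lead, mercury, PFOS, PFDA and PFNA by dose in µM, with the controls of the same plate and solvent; symbols separate the batches of wells and lines are means. PFOS declines from 32.7 to 50.1 CPM at 0.025 µM to 10.5 to 19.3 CPM at 25 µM.

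On plate 3153-AT the level of HSD17B2 depended on the batch of wells. The first water controls had 67.6 ± 5.72 CPM (n = 8) and the last 29.8 ± 7.17 CPM (n = 7), a difference of -1.16 ± 0.14 in log2 (adjusted p = 2.36e-10). Lead libraries at 25 µM had 103, 120, 67.1 and 80.7 CPM and copper libraries 138, 119, 43.9 and 50.1 CPM. Each is above the mean of the controls of its own batch, by ratios of the means of 1.64 and 2.48 for lead and 1.90 and 1.58 for copper. In the second batch, however, the ratio was already 1.55 at 0.025 µM of lead and 1.42 at 0.025 µM of copper, and what separates those wells from the last controls was not tested. The trend over the doses of lead, which leaves the controls out, was 0.23 log2 for each 10-fold step in the first batch (adjusted p = 0.000143) and 0.24 in the second (adjusted p = 0.0256). That of copper was 0.34 in the first batch (adjusted p = 5.43e-09) and 0.09 in the second (adjusted p = 0.754). Without a term for the batch neither group was called, at 0.74 ± 0.25 for lead (adjusted p = 0.0817) and 0.68 ± 0.25 for copper (adjusted p = 0.109). With it both were called higher, at 0.88 ± 0.12 for lead (adjusted p = 7.85e-09, with 6.52% of genes called) and 0.76 ± 0.12 for copper (adjusted p = 4.67e-07, with 7.57% called). Without that term, copper was also called with replicate 3 or 4 left out (adjusted p of 0.0156 and 0.0365) and lead with replicate 3 left out (adjusted p = 0.0338). Those fits keep more dosed wells of the first batch, where the controls were higher, than of the second. Exposure and batch cannot be told apart in them. Mercury libraries at 25 µM had 70.2, 69.9, 27.8 and 30.3 CPM, which are close to the controls of each batch. With the batch in the fit, SULT1E1 was lower and HSD17B2 higher in both lead and copper at 25 µM, while in PFOS the fit without that term called HSD17B2 and not SULT1E1. With the term, SULT1E1 was also called in PFOS at 2.5 µM (-1.91, adjusted p = 0.0303, with 0.0257% of genes called).

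HSD17B1, which forms estradiol from estrone, had 3 calls at 25 µM, 2 lower and 1 higher. Its gene is at chr17:42549214-42555213, plus strand. It shares 1971 exon bases with an antisense gene and has a pseudogene, HSD17B1P1, in the files, so reads of these genes may not be told apart. The water controls had 18.9 ± 6.39 CPM (n = 15), from 4.58 to 27.3. Copper libraries had 38.8, 32.5, 22.3 and 27.7 CPM (0.60 ± 0.18, adjusted p = 0.0303, with 5.09% of genes called). Arsenic libraries had 15.1, 9.45, 12.6 and 16.4 CPM (-0.57 ± 0.23, adjusted p = 0.042, with 41.4% called). Thiram, a dithiocarbamate fungicide, gave 5.06, 27.1, 4.92 and 2.90 CPM against 23.5 ± 6.90 CPM (n = 15) in its DMSO controls, which range from 6.66 to 31.8 (-1.04 ± 0.34, adjusted p = 0.0132, with 25.9% of genes called). In thiram, 3 libraries lay below every control and the other one among them. None of the 3 calls of HSD17B1 was kept under all alternatives: arsenic was called in 4 of 14, copper in 9 of 14 and thiram in 9 of 13. Without 1 replicate the adjusted p reached 0.193 in arsenic (replicate 2; lost also without 3 or 4), 0.280 in copper (replicate 1; lost also without 2) and 0.167 in thiram (replicate 1; lost also without 3 or 4).

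ESR1 was near 0 in nearly all libraries, and its level in arsenic at 25 µM was the exception. It was at 0 counts in 231 of 401 libraries (57.6%), with 1508 counts in all, and 52 libraries had at least 10 counts. The gene is at chr6:151656691-152129619, plus strand. In the 15 water controls of plate 3153-AT, ESR1 was at 0 in 8 libraries and at most 1.53 CPM. Arsenic libraries 1 to 4 had 0, 0.55, 0 and 0 CPM at 0.025 µM, 0.279, 0, 0 and 0 CPM at 0.25 µM, and 1.65, 0.798, 1.36 and 0 CPM at 2.5 µM. At 25 µM they had 1.82, 6.94, 3.64 and 6.86 CPM, from 17, 58, 28 and 86 counts, so that all 4 were above every control. The highest of the 89 other libraries of the plate had 1.94 CPM, and 3 of the 4 exceeded it. ESR1 rose by 4.08 ± 0.62 in log2 (adjusted p = 6.37e-09, with 41.4% of genes called). Its trend was 1.93 ± 0.32 for each 10-fold step of dose (adjusted p = 2.02e-07, with 29.7% called). As a ratio of summed counts per total ESR1 at 25 µM was 18.4 times the controls (189 against 53 counts, 95% interval 13.5 to 25.5, which covers counting error only). All 14 alternatives called ESR1 at 25 µM, with log2 differences between 3.28 and 4.35. The markers of luminal cells, ESR1 among them, summed to 764 to 849 CPM in arsenic at 25 µM, with 2 of 5 tested members higher and 2 lower. Those higher were ESR1 and FOXA1, and those lower KRT8 and KRT18. Of 4 tested stromal markers COL1A1 was higher (1.20 ± 0.43, adjusted p = 0.0173), and the 5 found in the files summed to 2.63 to 10.7 CPM against 0 to 6.0 CPM in the controls. Their part in the level of ESR1 was not tested. In the 20 other chemicals at 25 µM the group means of ESR1 were 0 to 0.394 CPM, from which no direction is read.

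ESR2, the other nuclear receptor, was at 0 counts in 220 of 401 libraries (54.9%), with 1892 counts in all. Its gene is at chr14:64084232-64338112, minus strand, and shares 523 exon bases with another gene on the same strand. Its 1 call was in DDE at 25 µM, a breakdown product of DDT, and rests on 2 controls. The 8 controls of the plate had 33, 0.399, 1.92, 1.27, 0, 1.21, 1.65 and 18.9 CPM of ESR2, from 153, 3, 11, 9, 0, 8, 14 and 64 counts. DDE libraries at 25 µM had 0.751, 0, 0.483 and 0 CPM, which lies within the range of the other 6 controls (-4.09 ± 1.28, adjusted p = 0.0453, with 7.77% of genes called). Without the control at 33 CPM the difference was -2.93 (adjusted p = 0.145) and without the one at 18.9 CPM it was -3.76 (adjusted p = 0.0752). The adjusted p was 0.0533 without the control at 1.65 CPM, under 0.05 without any 1 of the other 5, and 0.0844 to 0.189 with 1 replicate left out. In the other chemicals at 25 µM the means of ESR2 were 0 to 0.776 CPM, and no direction is read from them.

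**Figure D5:**
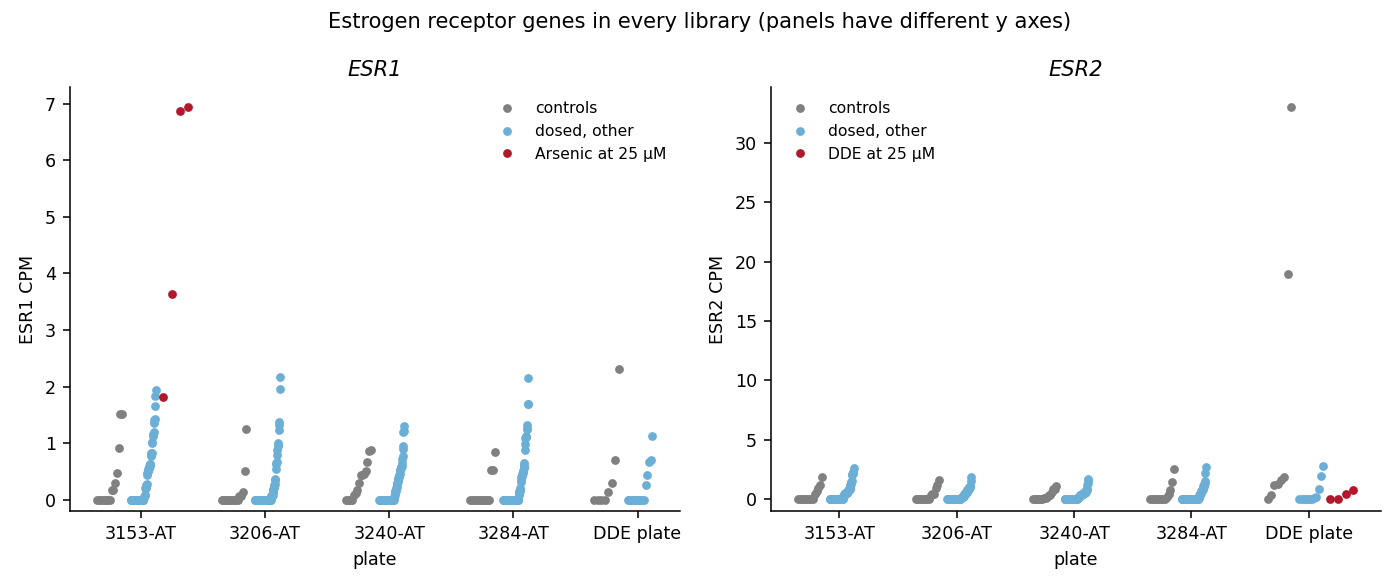
ESR1 and ESR2 in CPM (linear axes of different range) in every library by plate, with controls in grey and other dosed libraries in blue. Red points are arsenic at 25 µM for ESR1 and DDE at 25 µM for ESR2: ESR1 reaches 1.82 to 6.94 CPM in arsenic at 25 µM, and 2 of the 8 controls of the plate of DDE stand at 18.9 and 33 CPM of ESR2.

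GPER1, the membrane receptor, was expressed on all plates and had 1 call. Its gene, at chr7:1082208-1093815 on the plus strand, lies within C7orf50 of the opposite strand and shares no exon bases with it. Control means were 14.2 ± 5.54 CPM (n = 15) on plate 3153-AT, 13 ± 4.77 (n = 15) on 3206-AT, 10.3 ± 4.39 (n = 12, DMSO) on 3240-AT and 10.6 ± 4.19 (n = 15) on 3284-AT. They were 40.8 ± 5.19 CPM (n = 8) on the plate of DDE, of the other sequencing run. Arsenic at 2.5 µM had 4.27, 13.7, 6.62 and 4.10 CPM (-0.89 ± 0.25, adjusted p = 0.0375, with 1.96% of genes called), which overlaps the controls at 0.917 to 23 CPM. At 25 µM the arsenic libraries had 11.1, 3.83, 9.63 and 11.3 CPM (adjusted p = 0.0638), so the call at 2.5 µM had none above it in dose, and 8 of 14 alternatives kept it. It was lost without replicate 1, 3 or 4 (adjusted p of 0.365, 0.152 and 0.299). Cadmium at 25 µM had 0 and 1.40 CPM of GPER1 in its 2 libraries (-4.34 ± 1.99, adjusted p = 0.181), and thiram 9.95, 5.80, 0 and 0 CPM (adjusted p = 0.0622).

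GREB1, at chr2:11482341-11642788 on the plus strand, is induced by estradiol through ESR1 in receptor positive breast cells. Here it was low, at 3.0 ± 2.17 CPM (n = 15) in the water controls, with single controls from 0 to 7.63 CPM. Copper at 2.5 µM had 0.322, 0.814, 0.288 and 0.119 CPM, from 5, 19, 6 and 2 counts. GREB1 fell there by 2.65 ± 0.55 in log2 (adjusted p = 0.000719, with 3.0% of genes called), and 13 of 14 alternatives called it. The libraries lie in the lower part of the range of the controls. At 25 µM of copper GREB1 was at 1.49, 1.48, 1.21 and 1.08 CPM and was not called (-0.99, adjusted p = 0.207), all 4 above the libraries at 2.5 µM. Arsenic at 25 µM had 6.54, 2.39, 4.03 and 6.06 CPM (0.88 ± 0.36, adjusted p = 0.042), a call that 6 of 14 alternatives kept and that was lost without replicate 1 or 4 (adjusted p of 0.187 and 0.198). At 2.5 µM of arsenic the difference was -1.64 (adjusted p = 0.113). ESR1 and GREB1 were both called higher in arsenic at 25 µM, where 41.4% of all genes were called in either direction. A link between the 2 was not tested.

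Other genes of estrogen metabolism and action were counted at 25 µM in 5 lists: other steroid forming and converting enzymes, estrogen oxidation and conjugation, transport of steroid sulfates and glucuronides, receptors and their partners, and estrogen target genes. Over these lists 41 of 66 tested genes were called in arsenic, where 41.4% of all genes were, and 30 of 60 in thiram, where 25.9% were. In copper 11 of 66 were called (5.09% over all genes), in lead 10 of 66 (3.85%), in DDE 9 of 55 (7.77%) and in cadmium 7 of 66 (11% over all genes, from 2 libraries). In PFDA 2 and in PCB153 1 were called. The gene called in PCB153 was CYP1A1, a hydroxylase of estradiol induced through the aryl hydrocarbon receptor, which rose by 1.58 ± 0.30 (adjusted p = 0.0112) and was the 1 gene of 21307 called there (0.00469%). The genes called in PFDA were AKR1C1, at -1.18 ± 0.18 (adjusted p = 1.95e-05), and AKR1C2, at -0.59 ± 0.12 (adjusted p = 0.00694), among 13 calls of 19468 genes. These 3 genes are named after their values were seen. In arsenic, 4 of 15 tested converting enzymes were higher and 7 lower, with a median log2 difference of -0.66 against 0.00 over all genes. AKR1C1, an aldo-keto reductase of steroids, rose by 1.63 in arsenic (adjusted p = 4.40e-09), 2.0 in thiram (adjusted p = 3.16e-07) and 2.38 in copper (adjusted p = 1.21e-14), and its close relative AKR1C2, with which reads may be shared, by 2.19 in copper (adjusted p = 1.11e-09). HSD17B12, a dehydrogenase best known for fatty acid elongation, rose by 0.67 in arsenic (adjusted p = 3.00e-06), and HSD17B4, which works in peroxisomes, fell by 0.60 in thiram (adjusted p = 3.11e-05).

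Of the genes of oxidation and conjugation, 4 of 14 were higher and 4 lower in arsenic, and 1 of 12 was higher and 8 lower in thiram. The median log2 difference in thiram was -0.77, against -0.11 over all genes. Of all genes 41.4% were called in arsenic, 25.9% in thiram and 5.09% in copper. CYP1B1, which hydroxylates estradiol, fell by 1.94 in arsenic (adjusted p = 6.36e-19) and by 3.05 in thiram (adjusted p = 8.39e-20). In copper, edgeR called 0 of the 14 tested genes of this list (2 had an unadjusted p under 0.05, and DESeq2 called 2). SLC35B2, which carries the sulfate donor PAPS into the Golgi, fell by 1.08 in arsenic (adjusted p = 3.87e-14) and fell by 1.07 in thiram (adjusted p = 8.69e-11). Among 7 transporters, 3 were higher and 1 lower in arsenic. SLCO2B1, an importer of steroid sulfates, rose by 8.19 ± 0.94 (adjusted p = 5.99e-10), and SLCO4A1 fell by 1.48 (adjusted p = 6.55e-08). The CPM of SLCO2B1 is not given here, so only its direction is read. The exporters ABCC2 and ABCC4 rose by 1.05 (adjusted p = 1.98e-05) and 0.65 (adjusted p = 0.0234) in copper.

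Among receptors and partners, 7 of 15 were higher and 3 lower in arsenic, where 41.4% of all genes were called. NRIP1, a corepressor and itself an estrogen target, fell by 1.09 in arsenic (adjusted p = 1.15e-08) and by 0.98 in copper (adjusted p = 3.80e-07), and PHB2, a repressor of estrogen receptors that also works in mitochondria, fell by 1.18 in arsenic (adjusted p = 3.00e-24) and fell by 0.72 in thiram (adjusted p = 2.92e-09). FOXA1, a pioneer factor for ESR1, rose by 1.90 in thiram (adjusted p = 2.27e-06). Of 15 estrogen target genes, 3 were higher and 5 lower in arsenic, 5 higher and 3 lower in thiram, and 3 higher and 0 lower in copper. The shares called over all genes were 41.4%, 25.9% and 5.09% in these 3 chemicals. XBP1 rose by 2.03 in arsenic (adjusted p = 6.61e-35) and 1.96 in thiram (adjusted p = 2.35e-36), and STC2 by 2.53 in arsenic (adjusted p = 3.03e-30) and 2.03 in thiram (adjusted p = 1.04e-26). Both are known also as genes of the unfolded protein response. AREG, a ligand of the EGF receptor, rose by 1.45 in copper (adjusted p = 2.30e-17), where STC2 rose by 0.86 (adjusted p = 1.35e-05). The target list therefore moved both ways in arsenic and thiram, and no direction is given to it as a whole.

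Across 316 dosed libraries of run 2 and 13226 genes, the genes whose differences from controls were most like each member were found by Pearson's r of log2 CPM. For SULT1E1 these were STRA6 (r = 0.56), DLG5 (0.55) and SCNN1B (0.54), and for HSD17B2 they were KYNU (0.61), IL1RL1 (0.55) and NAMPT (0.54). For GREB1 they were KRT8 (0.43), H2AC6 (0.43) and PDK4 (0.41). These values changed little in the 302 libraries left without the 25 µM groups of arsenic, cadmium, copper and thiram, for example 0.50 for STRA6 and 0.63 for KYNU. Taken within plate and batch over all 316 libraries they were lower. There r was 0.49 for STRA6, 0.44 for KYNU, 0.41 for IL1RL1, 0.38 for NAMPT and 0.35 for KRT8. The values of the other members were lower without those groups: GLT8D1 with STS went from 0.68 to 0.14, SLC27A3 with HSD17B1 from 0.54 to 0.08 and RTL8B with GPER1 from 0.68 to 0.10. Within plate and batch the r of these 3 pairs over all 316 libraries was 0.66, 0.61 and 0.69. The other genes of STS, STRADB and ANKRD27, went from 0.67 and 0.66 to 0.10 and 0.14, those of HSD17B1, ALG3 and RTL8C, from 0.51 and 0.48 to 0.22 and 0.32, and those of GPER1, ANGEL1 and SIRT3, from 0.67 and 0.66 to 0.17 and 0.29. The points share plates, depth and batches of wells, so these correlations are a description.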

How the data were processed

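Per the submitters' processing notes, reads were handled with FastQC, MultiQC, STAR and featureCounts on GRCh38; the sources used here give no versions, annotation, handling of strand or filter on genes. The deposited values are raw whole-number counts per gene symbol, 1 file per library, not normalized. No molecular identifiers are mentioned, so counting intervals (95%) cover counting error only. CPM was computed here on TMM-scaled library sizes.

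Each plate, identified by the barcode in the labels, was fitted alone with edgeR 4.0.16 in R 4.3.3 (limma 3.58.1): quasi-likelihood F-test, 1 mean per chemical and dose, filterByExpr (minimum count 10, minimum total 15), dispersion from the 5% most abundant genes. Benjamini-Hochberg adjustment ran over all genes tested in a comparison, and an adjusted p under 0.05 counted as a call. The fit was also run on simulated counts of 1 plate, with 1 dispersion for all genes and no difference between batches. The genes changed in it were not near 0 counts, so it does not cover batch shifts or genes such as ESR1. Errors after ± on log2 values are standard errors, and on CPM are standard deviations. Dose trends were linear contrasts of the 4 doses (outer weight 3, inner weight 1) without the controls. A member that failed the filter was not tested, and no direction is read from levels of ESR1 or ESR2 near 0 counts. DESeq2 1.42.0, RLE scaling, no filter, batch and replicate terms, fits within batches and left-out libraries were alternatives.

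The members and gene lists were chosen with earlier results of these data known. Values in every library are given for called groups. For likeness, the 3 genes with the highest r per member were named (prior count 2, mean of at least 1 CPM), and of the other lists up to 2 genes a list by smallest p in the 3 chemicals with the most calls. Gene positions are from GENCODE v29 and the promoter from RefSeq.

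Same-numbered wells were checked for pairing: in no chemical did every same-numbered pair of wells correlate above 0.1, so the main fit did not take the numbers as pairs. Median r of same-numbered pairs ranged from -0.0026 in PFNA to 0.0722 in mercury. For pairs of other numbers it was 0.0018 and -0.0585 in those chemicals. In PFOA 13 of 16 libraries were closest to their own number. A weaker tie by number can thus remain under the bar of 0.1.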

Additional observations from a re-analysis of the deposited data

Results flagged for a closer look

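HSD17B1 in thiram at 25 µM had 1 library far from the other 3: it stood at 27.1 CPM and the next highest at 5.06 CPM, a gap of 0.911 of the range of the 4 libraries. This was 1 of 48 groups examined in this way, and chance marks about 1 in 20. The difference of this group from its controls is thus set by 3 of its 4 libraries.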

How the results depend on the processing

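SULT1E1 in arsenic at 2.5 and 25 µM, copper at 2.5 and 25 µM and lead at 25 µM, ESR1 in arsenic at 25 µM and HSD17B2 in PFOS at 25 µM kept their direction and their call under every alternative run for them. Over all members, the 19 calls against controls were 13 to 15 when 1 library of each group was left out, and 17 to 27 under the other alternatives: 17 with RLE scaling, 20 with DESeq2, 26 with no filter on low counts and 27 with a batch term. The 5 dose trends were 4 to 7 with 1 library left out, 8 with a batch term, 9 within batch 1 and 10 within batch 2. With the replicate block, which pairs wells by number, there were 8 dose trends. By chemical, 3 to 13 libraries correlated best with a library of their own number. SULT1E1 in cadmium at 25 µM, which has 2 libraries, went from -0.75 to between -2.92 and 0.0195 with 1 library left out, reversing without replicate 2. The cause of these changes was not tested. Levels of a few counts per library, as for ESR1 and ESR2, are limited by depth.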
